A study of Mus musculus with 24 samples.

Results

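The castration effect in the left ventricle (LV) was the difference between 4 mRNA libraries of castrated male mice (Gx; libraries 34, 35, 36 and 50) and 4 libraries of intact control males (Ctrl; libraries 31, 32, 33 and 49). These 8 libraries, of 24 in the series, were chosen by sex and treatment labels alone. The members were the 13746 genes, of 24958 named genes, with a mean normalized value of at least 10 over the 8 male libraries. The labels put every mouse at 24 months of age with gonadectomy of the Gx males at 12 months, and neither male group received any other treatment, so the control males were aged animals as well. The remaining 16 libraries came from females, namely ovariectomized (Ovx) or intact, with or without an infusion of angiotensin II (AngII). The labels put ovariectomy at 12 months as well. Each LV library was described as a pool of RNA from 2 mice, so that n = 4 counts pools and p-values measure the spread between pools. The study's methods name C57BL6/J females and do not describe the males, whose strain and surgery are therefore taken only as far as the labels go.

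The testis makes most of the circulating testosterone, and castration removes that source. Testosterone and its reduced form dihydrotestosterone act on gene transcription in target cells, and testosterone can also be converted to estradiol by aromatase. Androgens are known for their effects on muscle mass, on the cell types of the immune system and on matrix-producing cells, and part of their target genes also responds to glucocorticoids, through a very similar DNA element.

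The values of the 8 male libraries, as deposited, summed to 20550379 to 20632680 in Gx and to 19358943 to 20277545 in Ctrl. The genes above 0 numbered 15741 to 16114 in Gx and 15824 to 16032 in Ctrl. Depth could be read only relative to the median library, and was 0.768 to 1.30 in Gx and 0.939 to 1.04 in Ctrl. The 4 Y-linked genes examined were present in all 8 libraries (Ddx3y 1049 to 1388 in Gx and 1385 to 1847 in Ctrl). Their summed level was 2907 to 3258 in Gx, against 3267 to 3865 in Ctrl. Xist was at 1.05 to 8.15 in Gx and 2.0 to 35.5 in Ctrl, against 7199 to 8787 in control females, so the labelled sex held in every male library. Cardiomyocyte markers summed to 2454200 to 2526200 in Gx and to 2475400 to 2656000 in Ctrl, and atrial cardiomyocyte markers to 4213 to 4871 in Gx and to 4192 to 7708 in Ctrl. In bulk tissue, fewer cells of a type and less RNA per cell cannot be told apart.

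Few genes passed the thresholds in the castration comparison. At an adjusted p of at most 0.05 (limma on log2(value + 1), Benjamini-Hochberg over all genes tested), 16 genes passed, 9 higher and 7 lower in Gx, which is 0.116% of the 13746 genes tested (0.0655% higher and 0.0509% lower). When a fold threshold was added (1 or more on the log2 scale, either way), 6 genes were called (0.0436%), 2 higher in Gx (0.0145%; Lrrc55 and Col14a1) and 4 lower (0.0291%; C7, Lcn2, Lvrn and Penk). At an unadjusted p under 0.05 there were 1220 genes (8.88%), 594 higher and 626 lower in Gx. The median log2 fold change of all genes was 0.00, and its median standard error (SE) was 0.11. Leaving out Ctrl library 49 brought the count past the adjusted p to 34 (12 of them called), while leaving out Gx library 34 or 50 brought it to 8 or 7 (3 or 2 called), and leaving out Ctrl library 32 left 3 called. Without a mean-variance trend in the fit no gene passed. Of the 16 genes, 7 (Col14a1, Smoc2, Cd74, H2-Aa, C7, Dpep1 and Hsd11b1) passed the adjusted p in each of the 8 fits that left out 1 library.

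**Figure D1:**
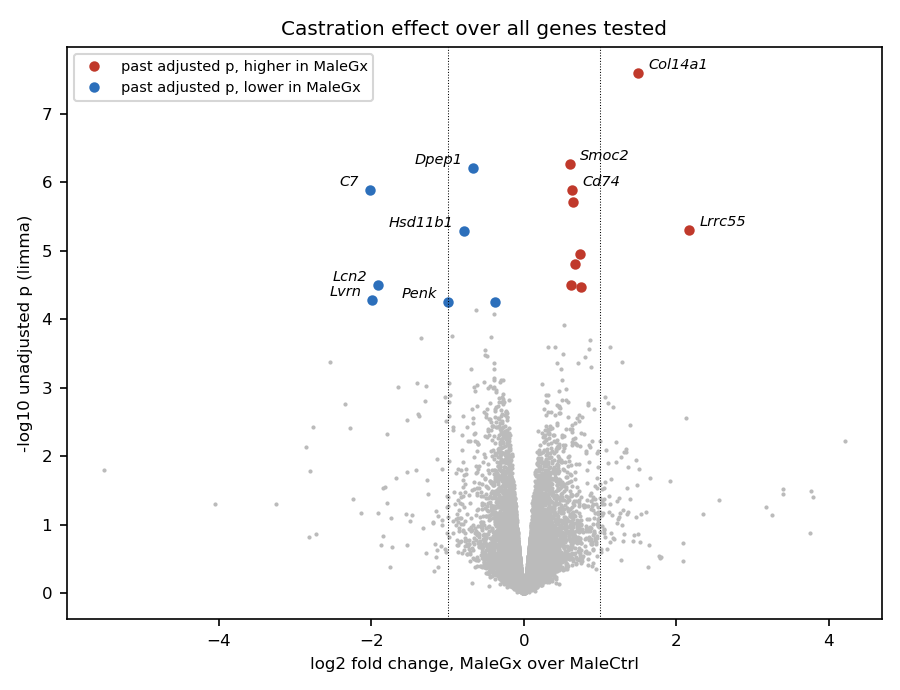
Each point is 1 of the 13746 genes tested, with the log2 fold change (Gx over Ctrl) on the horizontal axis and −log10 of the unadjusted limma p on the vertical axis. The 9 red points are genes past the adjusted p that were higher in Gx, the 7 blue points those that were lower, and dotted lines mark a log2 fold change of 1 in either direction. Col14a1 has the smallest p, and most of the coloured points lie inside the dotted lines.

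Of the 9 genes that rose, 4 belong to class II antigen presentation (Cd74, H2-Aa, H2-Ab1 and H2-Eb1), and the others are Col14a1, Smoc2, Fndc1, Itih5 and Lrrc55. Col14a1 was on the list of collagens, while Smoc2, Fndc1 and Itih5 were on none of the lists used here. Col14a1 (chr15:55307750-55520803 on mm10, plus strand) encodes a collagen that sits on the surface of collagen fibrils and organizes them. It had 790.0, 1024, 1121 and 1029 in Gx libraries, against 337, 300.2, 326 and 445 in Ctrl libraries. Every Gx library stood above every Ctrl library by a wide margin, and the means were 991 ± 141 and 352 ± 63.7 (SD, n = 4 each), a 2.82-fold higher level in Gx. The log2 fold change was 1.496 ± 0.13 (SE) with an adjusted p of 0.00035. Of the 16 genes it had the smallest p.

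Smoc2 (chr17:14279506-14404790, plus strand), a calcium-binding matricellular protein of the SPARC family, had 3389, 3911, 3632 and 3702 in Gx, against 2183, 2341, 2559 and 2569 in Ctrl. The 4 Gx libraries lay close together and none reached down to the Ctrl range. The log2 fold change was 0.60 ± 0.07 (adjusted p = 0.0028). Fndc1 (chr17:7738569-7827302, minus strand), which codes for a protein with fibronectin type III domains, had 1149, 1129, 1071 and 1058 in Gx, against 575, 629, 824 and 758 in Ctrl. Its Gx libraries were tight and all above Ctrl, with a log2 fold change of 0.67 ± 0.10 (adjusted p = 0.021). Itih5 (chr2:10153571-10256529, plus strand), a heavy chain of the inter-alpha-trypsin inhibitor family that binds hyaluronan, had 719, 668, 784 and 605 in Gx, against 425, 315, 459 and 456 in Ctrl. Its groups did not overlap either, and the log2 fold change was 0.75 ± 0.12 (adjusted p = 0.035). Fndc1 no longer passed on leaving out Gx library 34, 35, 36 or 50 or Ctrl library 32 (adjusted p 0.063 to 0.11). Itih5 no longer passed on leaving out any Gx library or Ctrl library 31 (adjusted p 0.061 to 0.16).

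Lrrc55 (chr2:85162334-85197197, minus strand), an auxiliary subunit of large-conductance calcium-activated potassium channels, had the largest increase among the genes past the adjusted p. Its values were 116, 76.5, 103 and 96.9 in Gx, against 16.2, 12.9, 29.7 and 29.3 in Ctrl. The lowest Gx library was well above the highest Ctrl library, and the means of 98.0 ± 16.4 and 22.0 ± 8.73 (SD, n = 4 each) differed 4.45-fold. The log2 fold change was 2.17 ± 0.30 (adjusted p = 0.0089). Leaving out Gx library 34 or 50 gave adjusted p-values of 0.070 and 0.061.

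**Figure D2:**
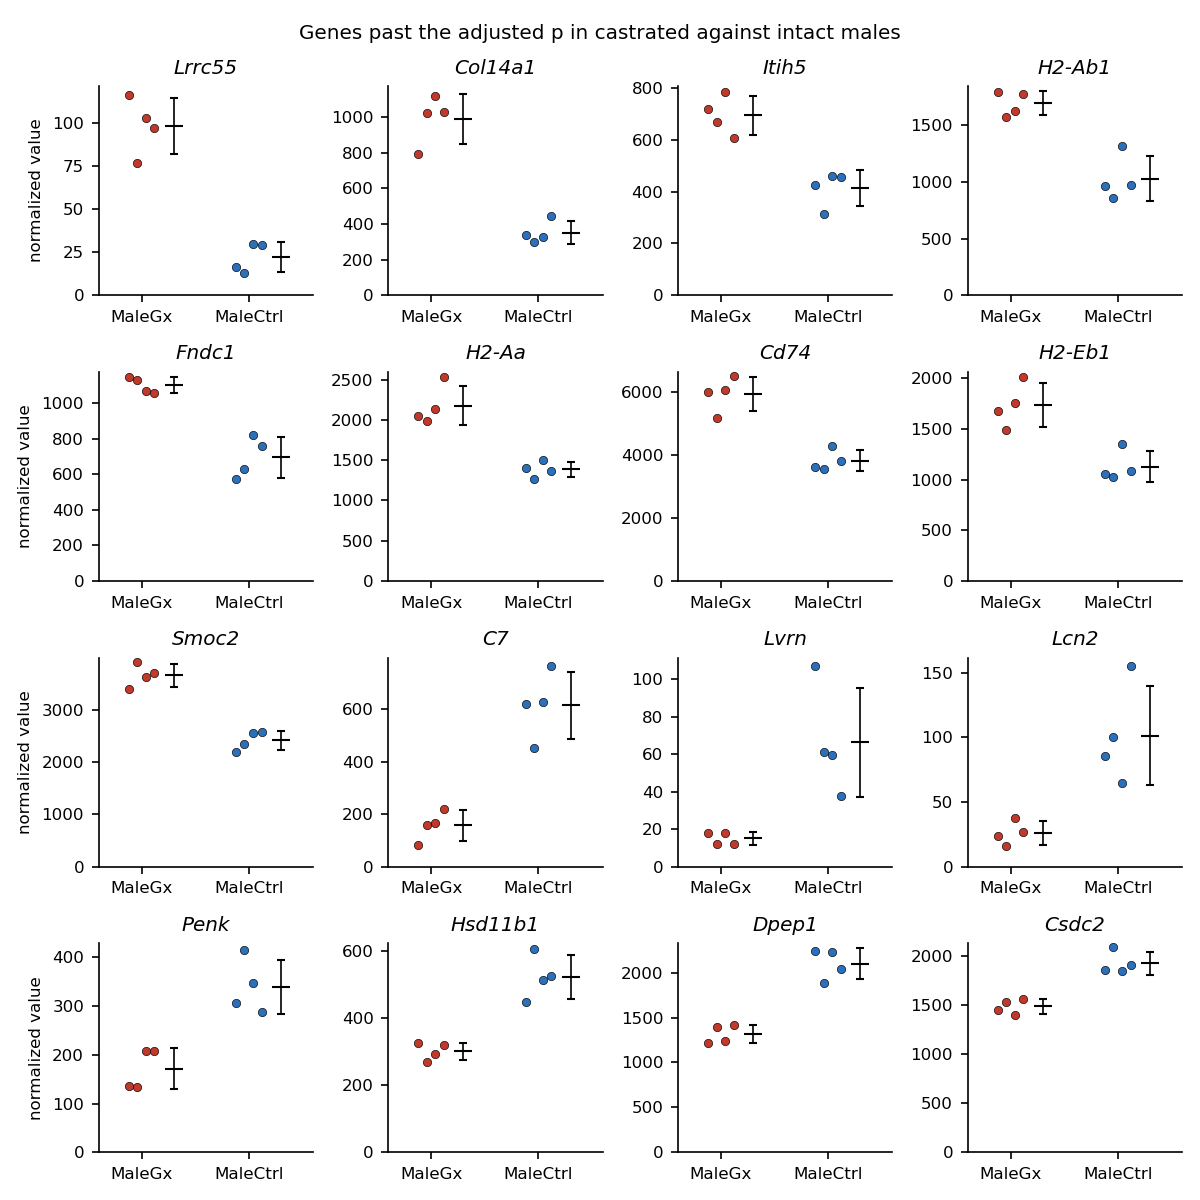
Normalized values (vertical axes, from 0) of the 16 genes past the adjusted p, 1 point per library, castrated males (MaleGx, red) left and control males (MaleCtrl, blue) right, with the mean and SD as black bars. In each panel the 4 castrated libraries do not overlap the 4 control libraries, from Lrrc55 with 98.0 and 22.0 on average to Csdc2 with 1483 and 1923.

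Among the genes that fell, C7 (chr15:4988762-5063740, minus strand), a terminal component of complement that takes part in the membrane attack complex, had the most negative log2 fold change, close to that of Lvrn, for which the ratio of means was the larger (4.40-fold, against 3.91-fold for C7, both higher in Ctrl). C7 had 81.2, 159.6, 168 and 221 in Gx, against 619, 453, 627 and 763 in Ctrl. The highest Gx library was less than the lowest Ctrl library, and the mean was 157 ± 57.6 in Gx and 615 ± 127 in Ctrl (SD, n = 4 each), 3.91-fold higher in Ctrl. The log2 fold change was −2.02 ± 0.25 (adjusted p = 0.0036). C7 was not on the list of complement genes used here, of which 0 of 16 tested members passed the adjusted p, with a median log2 fold change of −0.01, or 0.08 on the values as deposited. At an unadjusted p under 0.05, 3 of the 16 were higher and 0 lower, beside 4.32% higher and 4.55% lower over all genes. C1ra, a protease of the initiating complex, came nearest there with 1070, 1086, 1186 and 1264 in Gx and 804, 966, 977 and 964 in Ctrl (0.31 ± 0.08, adjusted p = 0.28).

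Hsd11b1 (chr1:193221634-193264075, minus strand) codes for the 11beta-hydroxysteroid dehydrogenase that regenerates active glucocorticoid inside cells. It had 325, 269, 292 and 318 in Gx, against 448, 606, 512 and 525 in Ctrl. The groups were clearly apart, and Hsd11b1 fell by 0.79 ± 0.11 on the log2 scale (adjusted p = 0.0089). It was the sole gene past the adjusted p among the 13 tested of the steroid-converting enzymes, beside 0.0509% of all genes past it and lower. At an unadjusted p under 0.05, 1 of the 13 was higher and 1 lower, beside 4.32% higher and 4.55% lower over all genes. Aromatase (Cyp19a1) was listed at 0 in all 8 male libraries.

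Dpep1 (chr8:123186242-123201812, plus strand), a membrane dipeptidase on the list of fibroblast markers, had 1215, 1392, 1242 and 1413 in Gx, against 2245, 1881, 2233 and 2035 in Ctrl. No Gx library came near the Ctrl range, and the log2 fold change was −0.67 ± 0.08 (adjusted p = 0.0028). Of the 12 fibroblast markers, 8 had a log2 fold change above 0, with a median of 0.18, and at an unadjusted p under 0.05 2 were higher and 1, Dpep1, lower. Over all genes 50.7% were above 0, with 4.32% higher and 4.55% lower at that p. Penk (chr4:4133531-4138819, minus strand), the precursor of enkephalin opioid peptides, had 136, 133, 207 and 208 in Gx, against 306, 414, 347 and 288 in Ctrl. Gx library 36 and library 50 were higher than the other Gx libraries and still below Ctrl, and the log2 fold change of −1.001 ± 0.17 lay at the fold threshold itself (adjusted p = 0.048). Csdc2 (chr15:81936759-81950941, plus strand), an RNA-binding protein with a cold-shock domain, had 1442, 1530, 1401 and 1560 in Gx, against 1856, 2091, 1841 and 1903 in Ctrl. It was the smallest change of the 16 genes at −0.37 ± 0.06 (adjusted p = 0.048). Csdc2 no longer passed the adjusted p on leaving out any of the 8 libraries (adjusted p 0.055 to 0.20). Penk no longer passed it on leaving out Gx library 34, 35 or 50 or Ctrl library 31, 32 or 33 (adjusted p 0.061 to 0.21).

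Lcn2 and Lvrn also fell, both at low levels. Lcn2 (chr2:32384633-32388252, minus strand), a secreted lipocalin that binds iron-carrying siderophores and is stored in neutrophil granules, had 23.5, 15.96, 37.5 and 27.1 in Gx, against 85.8, 99.99, 65.0 and 155 in Ctrl. All Gx libraries were below all Ctrl libraries, with a log2 fold change of −1.91 ± 0.31 (adjusted p = 0.035). Lvrn, a membrane aminopeptidase whose mean value was under 50 and which was named after its values were seen, had 18.0, 12.1, 18.2 and 11.9 in Gx, against 107, 61.1, 59.4 and 37.6 in Ctrl (−1.99 ± 0.34, adjusted p = 0.048). Ctrl library 31 had the highest value of Lvrn, and the groups did not overlap. The Lcn2 call was lost on leaving out Gx library 34, 35 or 50 or Ctrl library 31, 32 or 49 (adjusted p 0.055 to 0.15), and the Lvrn call on leaving out any library but Ctrl library 49 (adjusted p 0.090 to 0.19). Neutrophil markers summed to 72.2 to 205 in Gx and to 127 to 250 in Ctrl, with the 3 granule genes Mpo, Elane and Camp at 0 in all male libraries. The 3 neutrophil markers tested had a median log2 fold change of −0.90, none past the adjusted p, and their part in the Lcn2 result was not tested.

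For each of the 16 genes, the exact two-sided permutation test over the 70 labelings of 4 and 4 libraries gave p = 0.0286, the smallest it allows. Groups that do not overlap always give this value, so the test adds nothing beyond the lack of overlap. The 16 genes were also picked by their p in these same libraries, which favours groups that do not overlap. Over all genes, the 4 Gx libraries did not overlap the 4 Ctrl libraries for 694 genes (5.05%), 325 higher (2.36%) and 369 lower (2.68%) in Gx, so that lack of overlap alone was common.

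The genes next in order did not pass. Ace, the angiotensin-converting enzyme of the renin-angiotensin system, had 1898, 1577, 2121 and 2112 in Gx, against 3151, 2503, 2722 and 3512 in Ctrl (−0.62 ± 0.11, adjusted p = 0.059). All 4 Gx libraries were below all 4 Ctrl libraries. Msrb1, a selenoprotein that repairs oxidized methionine, had a log2 fold change of −0.39 ± 0.07 (adjusted p = 0.064). Kcnk1, a background potassium channel, had −0.94 ± 0.18, and Psme4, an activator of the proteasome, had −0.43 ± 0.08 (adjusted p = 0.12 for both). On the other side Anpep, a membrane aminopeptidase, had 705, 691, 705 and 789 in Gx, against 422, 553, 474 and 561 in Ctrl (0.53 ± 0.10, adjusted p = 0.089). Leaving out 1 library took some of these below the threshold, namely Ace without Ctrl library 32 (adjusted p = 0.045), Kcnk1 without Ctrl library 31 (0.045), and Psme4 (0.021) and Anpep (0.039) without Ctrl library 49. Of the 19 alternatives, Ace passed in 2, Kcnk1 in 1, Psme4 in 3 and Anpep in 4. Their adjusted p reached 0.40, 0.37, 0.44 and 0.34 in the same order.

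The 4 genes of class II antigen presentation past the adjusted p were all higher in Gx. Class II molecules are alpha-beta dimers that show peptides from engulfed material to CD4+ T cells. Dendritic cells, macrophages and B cells carry them, and the invariant chain Cd74 guides their assembly. H2-Aa and H2-Ab1 encode the 2 chains of the I-A molecule, and H2-Eb1 the beta chain of I-E. Their transcription is driven by the coactivator Ciita through a set of conserved promoter boxes, among them the X box and the CCAAT-type Y box.

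The upstream sequences of H2-Aa and H2-Eb1 are shown because these are the class II genes past the adjusted p that had an entry among the RefSeq promoters (GRCm38.p6, the same build as mm10). Each is read 5′ to 3′ on the strand of its gene, and the capitals mark the core GNAAC of the X box and the Y box TGATTGG:
H2-Aa: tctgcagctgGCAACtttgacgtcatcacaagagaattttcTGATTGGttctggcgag
H2-Eb1: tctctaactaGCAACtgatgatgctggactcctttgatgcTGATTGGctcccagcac
The H2-Aa stretch is chr17:34287857-34287914 on the minus strand and the H2-Eb1 stretch chr17:34305766-34305822 on the plus strand. In H2-Aa the boxes stood 26 bases apart and the X box core began 81 bases before the annotated start. In H2-Eb1 they stood 25 bases apart and the core began 91 bases before it. Both stretches lie upstream of the first exon. Of the other antigen presentation genes looked up, H2-DMb1 held the same pair with a spacing of 26 bases, and H2-DMa, H2-K1, H2-D1, B2m, Tap1, Psmb8 and Psmb9 did not hold it in this window. Over the whole table, 272 of 32851 promoters (0.828%), each from 250 bases before to 50 after a start, held GNAAC followed after 10 to 40 bases by TGATTGG on either strand. This pattern was chosen after the values of these genes were seen, and a match is a description of the letters only. Of the 16 genes past the adjusted p, 9 had a promoter in the table. The full palindromic androgen and glucocorticoid response element (AGAACA and TGTTCT parted by 3 bases of any kind, the same on both strands) was in 0 of these 9 promoters, in 1 of the 13735 promoters of genes tested (Sgk1, a kinase induced by corticosteroids) and in 3 of all 32851 (0.00913%).

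Cd74 had 6013, 5192, 6074 and 6506 in Gx, against 3634, 3553, 4305 and 3823 in Ctrl. H2-Aa (chr17:34282744-34287823, minus strand) had 2052, 1988, 2135 and 2536 in Gx, against 1404, 1267, 1501 and 1371 in Ctrl. H2-Ab1 (chr17:34257689-34269419, plus strand) had 1791, 1577, 1631 and 1774 in Gx, against 966, 860.4, 1318 and 975 in Ctrl. In these 3 genes every Gx library was above every Ctrl library, and Ctrl library 33 was the highest control each time. H2-Eb1 (chr17:34305867-34316674, plus strand) had 1679, 1493, 1757 and 2014 in Gx, against 1059, 1022, 1351 and 1086 in Ctrl, with the same order of groups.

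The log2 fold changes were 0.63 ± 0.08 for Cd74 (adjusted p = 0.0036), 0.65 ± 0.08 for H2-Aa (adjusted p = 0.0044), 0.73 ± 0.11 for H2-Ab1 (adjusted p = 0.017) and 0.62 ± 0.10 for H2-Eb1 (adjusted p = 0.035). These 4 genes were thus 1.54 to 1.64-fold higher on average in Gx. With all 24 libraries in the fit, which then took its spread from the female groups too, none of the 4 passed (adjusted p = 0.30 for H2-Ab1, 0.37 for H2-Eb1 and 0.40 for Cd74 and for H2-Aa). In the same fit Itih5 (0.073), Lcn2 (0.13), Lvrn (0.14), Penk (0.10) and Csdc2 (0.21) did not pass either. H2-Ab1 also did not pass without Gx library 34 (adjusted p = 0.10) or 50 (0.069). H2-Eb1 did not pass without Gx library 34, 36 or 50 or Ctrl library 31 or 32 (adjusted p 0.094 to 0.15). The mouse class I and II genes are a family of similar sequences, and how reads shared between them were counted is not given in the sources used here.

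Of the 14 tested genes of antigen presentation, these 4 passed the adjusted p, all higher in Gx, against 0.0655% of all genes. At an unadjusted p under 0.05, 11 were higher, against 4.32% of all genes. In 9 of the 14 the groups did not overlap with Gx higher, against 2.36% of all genes. All 14 had a log2 fold change above 0, with a median of 0.54, against 50.7% above 0 and a median of 0.00 over all genes. The list was chosen with earlier results of these libraries known. The other members are given to complete the list, after their values were seen. The chaperones that load class II molecules, H2-DMa (0.63 ± 0.18, adjusted p = 0.31) and H2-DMb1 (0.87 ± 0.28, adjusted p = 0.36), and the coactivator Ciita (0.60, adjusted p = 0.58, groups overlapping) did not pass. In the class I branch, the log2 fold changes were smaller than in the class II genes, and none passed the adjusted p. They were 0.31 for H2-K1, 0.25 for H2-D1 and 0.27 for beta-2 microglobulin (B2m). The immunoproteasome subunits Psmb8 and Psmb9 had 0.46 and 0.49, and the peptide transporters Tap1 and Tap2 had 0.45 and 0.15. Tap1 and Psmb9 overlap on opposite strands, and whether the counting used strand is not given in the sources used here.

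**Figure D3:**
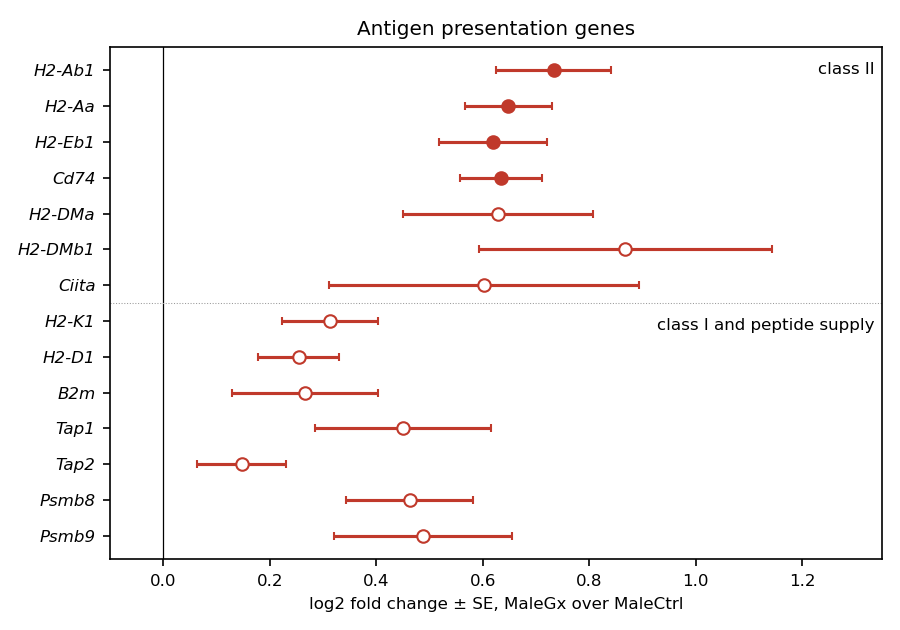
Log2 fold change (Gx over Ctrl, horizontal axis) with its SE for the 14 tested antigen presentation genes. Filled circles are the 4 genes past the adjusted p (H2-Ab1, H2-Aa, H2-Eb1 and Cd74, 0.62 to 0.73), open circles those that did not pass, and the dotted line parts class II from class I and peptide supply genes. All 14 lie to the right of 0.

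Markers of macrophages, of B and plasma cells and of T and NK cells were read beside this result. No list of dendritic cell markers was used, so these cells were not covered. Macrophage markers summed to 12239 to 13903 in Gx and to 11240 to 16429 in Ctrl, with 0 of 16 past the adjusted p and a median log2 fold change of 0.01. B-cell and plasma cell markers summed to 181 to 445 in Gx and to 111 to 326 in Ctrl, with 7 of 7 above 0, a median of 0.50 and none past the adjusted p. T and NK markers summed to 123 to 224 in Gx and to 65.1 to 197 in Ctrl, with 5 of 6 above 0. Over all genes 50.7% were above 0. The B and T marker levels were low and their ranges overlapped, and their part in the class II result was not tested.

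Interferon-stimulated genes, a set best known from antiviral defence, had 24 of 26 members above 0 and a median log2 fold change of 0.21, with 8 higher and 0 lower at an unadjusted p under 0.05 and 0 past the adjusted p. Over all genes 50.7% were above 0 and 4.32% higher at that p, and the count of 8 ran from 1 to 10 over the alternatives. Igtp, an interferon-induced GTPase, had 565, 582, 589 and 593 in Gx, against 471, 552, 410 and 413 in Ctrl (0.35 ± 0.10, adjusted p = 0.31). All 4 Gx libraries of Igtp were above Ctrl. Irf7, an interferon regulatory factor, and Xaf1 had values that overlapped between groups (0.44 and 0.49, adjusted p = 0.41 for both).

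Beyond Col14a1, the collagens gave small differences. Of 25 tested, 1 passed the adjusted p, 7 were higher and 0 lower at an unadjusted p under 0.05, and 21 had a log2 fold change above 0, with a median of 0.19. The shares over all genes were 0.0655% past the adjusted p and higher, 4.32% higher at the unadjusted p and 50.7% above 0. The count of 7 ran from 4 to 10 over the alternatives. Col15a1, a collagen of the basement membrane zone, had 3717, 3884, 3387 and 3720 in Gx, against 2478, 1793, 3454 and 3001 in Ctrl (0.50 ± 0.15, adjusted p = 0.32). Ctrl library 33 overlapped Gx. The beaded-filament chains Col6a3 (0.36 ± 0.11, adjusted p = 0.36) and Col6a2 (0.34 ± 0.11, adjusted p = 0.39) were of similar size. The fibrillar chains that make up most scar collagen, named after their values were seen, were variable among controls. Col1a1 had 2663, 3043, 3017 and 2791 in Gx, against 2596, 1801, 2562 and 3385 in Ctrl, and Col3a1 had 6112, 6875, 5735 and 5192 in Gx, against 3586, 3486, 5138 and 7339 in Ctrl. For both, Ctrl library 49 was above every Gx library. Summed fibroblast markers overlapped entirely, at 54973 to 70075 in Gx and 56959 to 69757 in Ctrl.

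Of 42 other matrix proteins, 23 were above 0 (50.7% of all genes were), with a median of 0.03 and 0 past the adjusted p. At an unadjusted p under 0.05, 8 were higher and 3 lower, beside 4.32% higher and 4.55% lower over all genes. These counts ran from 5 to 16 and from 1 to 6 over the alternatives. Mfap4, a microfibril-associated protein of elastic fibres, had 405, 485, 534 and 437 in Gx, against 213, 194, 234 and 460 in Ctrl (0.84 ± 0.21, adjusted p = 0.26). Lumican (Lum), a small proteoglycan of collagen fibrils, had 1921, 2026, 2228 and 2084 in Gx, against 1196, 1442, 1362 and 2037 in Ctrl (0.48 ± 0.13, adjusted p = 0.27). In both, 3 Ctrl libraries were far below Gx and Ctrl library 49 stood at the Gx level, and without library 49 the adjusted p was 0.0027 for Mfap4 and 0.0055 for Lum. Each gene passed in 2 of the 19 alternatives, and the adjusted p reached 0.55 for Mfap4 and 0.61 for Lum. Among these proteins Efemp1, a fibulin, had 389, 377, 371 and 479 in Gx, against 454, 581, 687 and 519 in Ctrl (−0.46 ± 0.13, adjusted p = 0.29), with Gx library 50 overlapping Ctrl.

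Of 32 matrix enzymes and inhibitors, 2 were higher and 4 lower at an unadjusted p under 0.05 and 0 passed the adjusted p. Over all genes 4.32% were higher and 4.55% lower at that unadjusted p. Mmp3, stromelysin 1, had 122, 107, 158 and 120.4 in Gx, against 235, 406, 159 and 252 in Ctrl (−0.98 ± 0.23, adjusted p = 0.23, or 0.049 without Ctrl library 33). It passed in 1 of the 19 alternatives, and its adjusted p reached 0.52. Lox, the enzyme that starts collagen and elastin cross-links, had 91.3, 65.2, 85.9 and 46.2 in Gx, against 135, 98.4, 151 and 178 in Ctrl (−0.97 ± 0.24, adjusted p = 0.26). For both genes the groups did not overlap, although Gx library 36 and Ctrl library 33 nearly met for Mmp3.

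Of the 10 steroid hormone and related nuclear receptors tested, 0 passed the adjusted p and 3 were higher at an unadjusted p under 0.05 (0 to 5 over the alternatives), beside 4.32% of all genes. They were the membrane estrogen receptor Gper1 with 63.1, 55.6, 58.5 and 54.7 in Gx, against 43.8, 45.2, 31.0 and 43.7 in Ctrl (0.50 ± 0.22, adjusted p = 0.55), the glucocorticoid receptor Nr3c1 (0.12 ± 0.06, adjusted p = 0.56) and the mineralocorticoid receptor Nr3c2 (0.28 ± 0.12, adjusted p = 0.55). The level of Nr3c1 was 2492 to 2568 in Gx, just above its range of 2194 to 2442 in Ctrl.

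Genes described as androgen-responsive in prostate or muscle gave no shared direction. Of 23 tested, 0 passed the adjusted p, 2 were lower and 0 higher at an unadjusted p under 0.05, and the median log2 fold change was −0.06, or 0.03 on the values as deposited. Over all genes 4.55% were lower and 4.32% higher at that unadjusted p. Fkbp5, a co-chaperone of steroid receptors that androgens and glucocorticoids induce, had 261, 312, 268 and 339 in Gx, against 1329, 1140, 339 and 518 in Ctrl. The Gx libraries were alike, while the Ctrl libraries split into 31 and 32 with high values and 33 and 49 with low ones, library 33 almost touching Gx. The log2 fold change was −1.29 ± 0.33 (adjusted p = 0.26), and the adjusted p lay between 0.025 (without Ctrl library 33) and 0.54 over 19 alternatives. Zbtb16, a transcription factor with the same inducers, had 1002, 1364, 1771 and 1463 in Gx, against 5960, 4300, 1257 and 1073 in Ctrl. The same Ctrl libraries 31 and 32 were high, and the other Ctrl libraries lay among Gx (−0.82 ± 0.43, adjusted p = 0.61). Clock genes highest later in the day summed to 31502, 26642, 19713 and 16328 in Ctrl libraries 31, 32, 33 and 49. In Gx they summed to 16842, 21694, 27599 and 24662, with 0 of 12 past the adjusted p. The study's euthanasia, described for females, was spread over several hours, and the part of time of day in these values was not tested. Ell2, an elongation factor, overlapped between groups (−0.33 ± 0.13, adjusted p = 0.52).

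Glucocorticoid-responsive genes, a list that shares Fkbp5 and Zbtb16 with the androgen-responsive list, had a median log2 fold change of −0.26. Of the 16, 12 were below 0 (49.3% of all genes were) and 3 were lower at an unadjusted p under 0.05 (4.55% of all genes were). Lcn2 alone passed the adjusted p, beside 0.0509% of all genes past it and lower. The Ctrl libraries that were high in Fkbp5 and Zbtb16 were not those highest in Lcn2, which was library 49.

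The renin-angiotensin and natriuretic genes had 0 of 13 past the adjusted p, 3 lower and 0 higher at an unadjusted p under 0.05, and a median log2 fold change of −0.11. Over all genes 4.55% were lower and 4.32% higher at that unadjusted p. The clearance receptor for natriuretic peptides, Npr3, had −0.31 ± 0.11 (adjusted p = 0.43). The natriuretic peptide genes were spread among the Ctrl libraries (Nppa was named after its values were seen). Nppa had 1852, 1859.6, 1878 and 1734 in Gx, against 2938, 1702, 1424 and 5322 in Ctrl, and Nppb had 6395, 6689.8, 4241 and 4088 in Gx, against 3957, 3631, 4095 and 12065 in Ctrl. In both genes Ctrl library 49 was the highest of the 8.

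Lists of cardiomyocyte genes had no member past the adjusted p. Of 26 sarcomere genes, 0 were higher and 3 lower at an unadjusted p under 0.05, with a median of −0.03, or 0.06 on the values as deposited. Of 19 cardiac stress genes, 2 were higher and 2 lower at an unadjusted p under 0.05, with a median of −0.07, or 0.01 on the values as deposited. Beside both lists, 4.32% of all genes were higher and 4.55% lower at that p. Xirp2, an actin-binding protein of the intercalated disc, had 12587, 8514, 12987 and 10257 in Gx, against 26304, 13091, 13361 and 16547 in Ctrl (−0.60 ± 0.19, adjusted p = 0.34). Nfatc4, a calcineurin-regulated transcription factor, had 193, 173, 212 and 220 in Gx, against 128, 167, 152 and 146 in Ctrl (0.42 ± 0.14, adjusted p = 0.36). Skeletal alpha-actin (Acta1), re-expressed in stressed ventricle, had 5873, 4024, 5068 and 5419 in Gx, against 13305, 4962, 4798 and 19056 in Ctrl. Ctrl libraries 31 and 49 were high and the other Ctrl libraries lay in the Gx range (−0.80 ± 0.35, adjusted p = 0.55).

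In lists of metabolism and muscle mass, no member passed the adjusted p among 35 genes of fatty acid uptake and oxidation (median −0.03), 25 of glycolysis (−0.03), 73 oxidative phosphorylation subunits (0.02), 17 of the growth hormone and insulin-like growth factor axis (−0.02) or 13 muscle atrophy genes (−0.09). On the values as deposited these medians were all above 0, at 0.05, 0.05, 0.10, 0.06 and 0.02 in the same order. The muscle ubiquitin ligase atrogin-1 (Fbxo32) had 4215, 3804, 4418 and 4071 in Gx, against 4806, 5237, 4722 and 4314 in Ctrl (−0.21, adjusted p = 0.37). Of 67 cytosolic ribosomal protein genes, 66 had a log2 fold change above 0, with 24 higher and 0 lower at an unadjusted p under 0.05, 10 with no overlap between groups and Gx higher, and 0 past the adjusted p. Over all genes 50.7% were above 0, 4.32% higher at that p and 2.36% apart with Gx higher. The count of 24 was 61 on the values as deposited and ran from 4 to 61 over the alternatives. Their median was 0.13, or 0.22 on the values as deposited, where Gx libraries were 0.09 higher than Ctrl over all genes. The largest subunit differences by p, Rpl17 and Rpl10, were 0.19 and 0.20. Immediate early genes, which cells induce rapidly on many stimuli, had 16 of 17 above 0 and a median of 0.20, with 5 higher at an unadjusted p under 0.05 (1 to 7 over the alternatives), beside 50.7% above 0 and 4.32% higher at that p over all genes. The highest in rank was Klf4 with 1466, 1578, 1668 and 1721 in Gx, against 1422, 1141, 1164 and 1120.4 in Ctrl (0.41 ± 0.08, adjusted p = 0.14, or 0.018 without Ctrl library 31). Klf4 passed in 3 of the 19 alternatives, and its adjusted p reached 0.45.

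With 0.116% of all genes past the adjusted p, a list of this length seldom holds one. Of the 29 pathway lists, 25 had no member past the adjusted p, and of the 17 lists of cell type markers 16 had none. The exception among markers was Dpep1. The lists of the antigen presentation, interferon-stimulated, immediate early, collagen and ribosomal protein genes kept a median above 0 under each of the 19 alternatives, at 0.40 to 0.63, 0.13 to 0.30, 0.15 to 0.40, 0.11 to 0.28 and 0.09 to 0.22. Other lists did so too, among them steroid receptors (0.08 to 0.17), fibroblasts (0.08 to 0.31), lymphatic endothelium (0.11 to 0.32) and B cells (0.15 to 0.84). Lists that stayed below 0 included glucocorticoid-responsive (−0.37 to −0.18) and renin-angiotensin genes (−0.13 to −0.02).

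**Figure D4:**
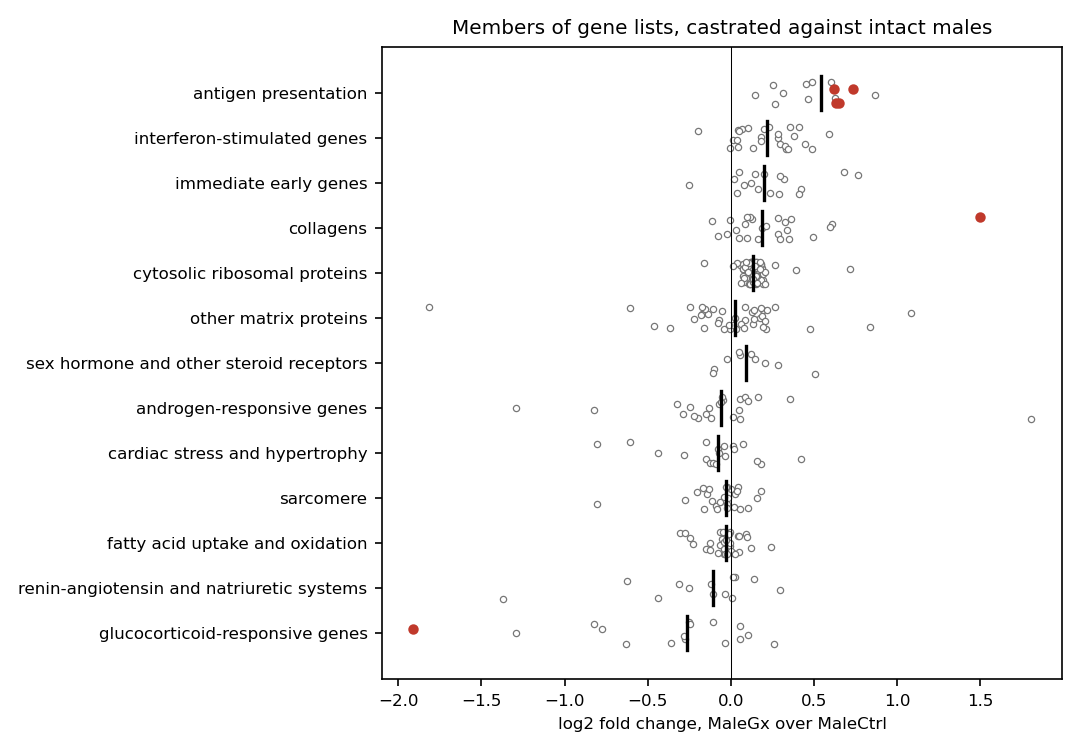
Log2 fold change (Gx over Ctrl, horizontal axis) of each tested member of 13 gene lists (rows). Circles are genes, filled red where past the adjusted p (Col14a1, Lcn2 and the 4 class II genes), and black bars are list medians, from 0.54 for antigen presentation to −0.26 for glucocorticoid-responsive genes. The vertical spread within a row carries no information.

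How castration compared with removal of the ovaries was asked with an interaction over the 16 libraries without AngII, namely the castration effect minus the ovariectomy effect. Of 13792 genes tested, 1 passed the adjusted p and was called (0.00725%), and 795 had an unadjusted p under 0.05 (5.76%). That gene was C7. In females it had 176, 190.5, 181 and 245 in Ovx libraries, against 50.1, 159, 147 and 90.1 in Ctrl libraries. The log2 fold change was −2.02 after castration and 0.94 after ovariectomy, a difference of −2.97 ± 0.44 (adjusted p = 0.027). The Ctrl males stood above the other 3 groups and the Gx males were within the range of the females. The C7 difference passed in 6 of the 16 fits that left out 1 library and was lost without Gx library 35 or 36, male Ctrl library 31, 33 or 49, Ovx library 43, 44, 45 or 53, or female Ctrl library 51 (adjusted p 0.057 to 0.10). Female Ctrl libraries 37 and 51 held low values of Y-linked genes (Ddx3y 11.3 and 31.8), and without both the difference was −2.38 (adjusted p = 0.079).

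For the other genes past the adjusted p in males the difference between the sexes did not pass. Lrrc55 had 56.3, 73.3, 65.9 and 52.8 in Ovx and 38.5, 58.1, 77.2 and 54.6 in female Ctrl libraries, and the difference was 2.02 ± 0.39 (adjusted p = 0.20). Col14a1 had 938, 1206, 1159 and 1346 in Ovx and 638, 898, 1368 and 812 in female Ctrl libraries, with a difference of 1.13 ± 0.25 (adjusted p = 0.34). Both genes were lower in Ctrl males than in any library of these female groups. Smoc2 averaged 3423 in Ovx and 3316 in female Ctrl libraries, near the Gx mean of 3659, with a difference of 0.55 ± 0.11 (adjusted p = 0.21). Hsd11b1 averaged 266 in Ovx and 305 in female Ctrl libraries, beside 301 in Gx males and 523 in Ctrl males (difference −0.60 ± 0.16, adjusted p = 0.60). Dpep1 averaged 1433 in Ovx and 1642 in female Ctrl libraries (difference −0.48 ± 0.11, adjusted p = 0.39). Penk did not share this arrangement, with 280.2 in Ovx and 291 in female Ctrl libraries, closer to Ctrl males than to Gx males. Cd74 averaged 4920 in Ovx and 5153 in female Ctrl libraries, where library 39 alone had 8667 and library 37 had 2975.

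**Figure D5:**
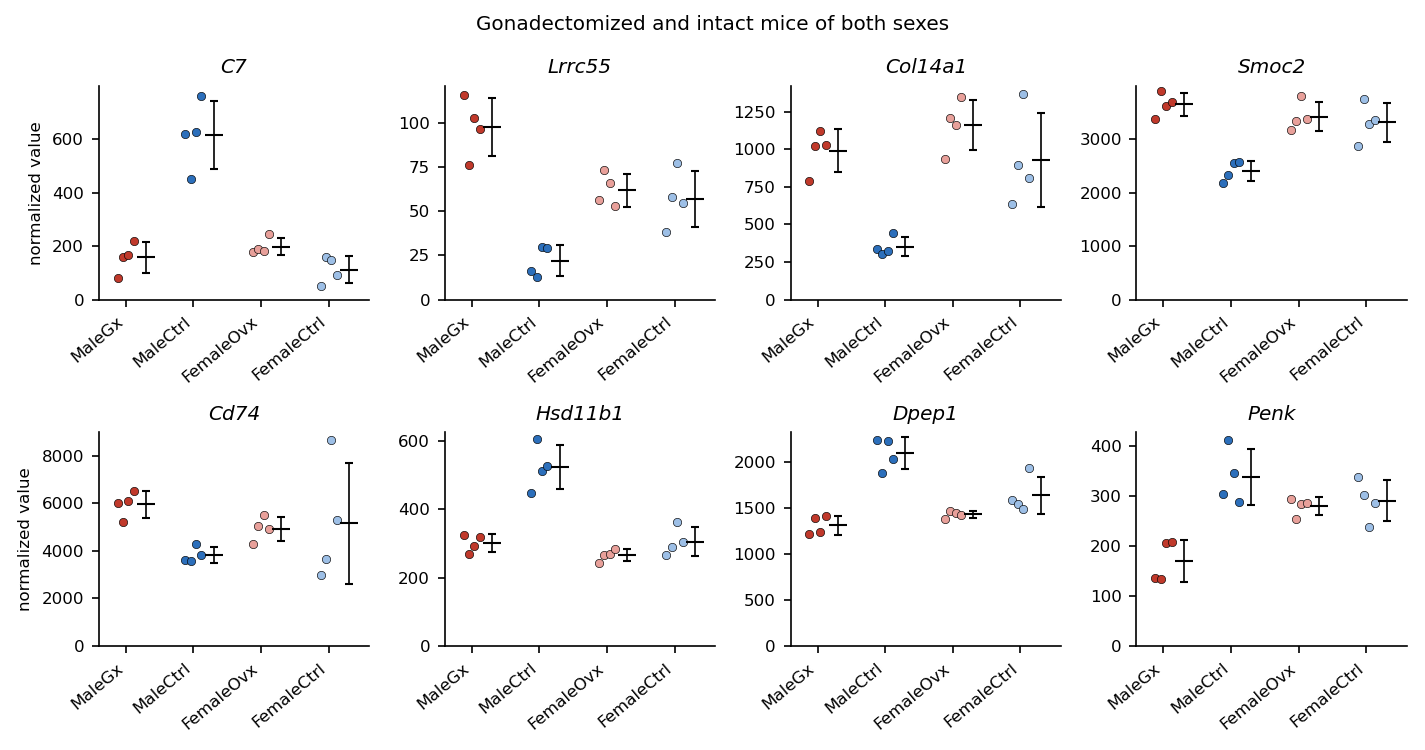
Normalized values (vertical axes, from 0) of 8 genes in castrated males (MaleGx), control males (MaleCtrl), ovariectomized females (FemaleOvx) and control females (FemaleCtrl), 1 point per library with the mean and SD as black bars. For C7 and Hsd11b1 control males stand above the other groups (means 615 and 523) and for Lrrc55, Col14a1 and Smoc2 below them (means 22.0, 352 and 2413), while Penk is lowest in castrated males (171).

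Next in order by p in the interaction, none past the adjusted p, came Slit3, a secreted guidance protein, with 376, 437, 402 and 446 in Gx and 561, 556, 715 and 541 in Ctrl males, and 541, 568, 466 and 639 in Ovx and 356, 482, 452 and 356 in Ctrl females (difference −0.94 ± 0.17, adjusted p = 0.20). The change was downward after castration (−0.51) and upward after ovariectomy (0.43). The phosphodiesterase Pde4b, which breaks down cyclic AMP, had the opposite arrangement, 0.51 after castration and −0.30 after ovariectomy (difference 0.81 ± 0.16, adjusted p = 0.21). Srebf1, a regulator of lipid synthesis, differed by −0.58 ± 0.11 (adjusted p = 0.20), the clock repressor Nr1d1 by −0.64 ± 0.13 (adjusted p = 0.31) and the BMP-binding protein Bmper by −1.12 ± 0.24 (adjusted p = 0.33). For Srebf1 and Nr1d1 the castration effect itself was −0.10 in each, and the ovariectomy effect 0.48 and 0.54. The part of time of day in the Nr1d1 difference was not tested.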

How the data were processed

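LV free-wall mRNA was sequenced from 4 castrated and 4 control male pools (24 libraries in the series, 6 groups). The authors aligned reads to mm10 with STAR and normalized with DESeq2. STAR and Salmon are named in the processing notes of the submitters. The deposited table holds a normalized signal per gene, not counts, and 0 of its columns lacked a sample. Whole reads could not be recovered (at most 54.1% of low values were whole within 0.02), so depth is known only in relative terms and no count model or interval was used. From this table, 14 rows named by dates (0.0552% of the sum) and 1 row without a name were left out. Each library was divided by a median-of-ratios factor from 13871 genes, because the deposited level of Gx lay 0.0854 above Ctrl on the log2 scale.

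limma 3.58.1 (R 4.3.3) was fitted to log2(value + 1) (eBayes with trend, two-sided, Benjamini-Hochberg over all genes). Fold changes are on this scale and understate changes of low genes. Calls needed both an adjusted p up to 0.05 and a log2 change of 1 or more in size. Replicate pairs within the male groups differed by a median of 0.129 to 0.195 (log2), so none was a duplicate. Scripts were tested on simulated data. The 48 gene lists were described by counts and medians, without a set test. The members and lists were chosen with earlier results of these data known. Named were called genes with a mean of at least 50 (up to 15 per direction), filled to 10 by p, up to 4 members of each list by p and its most abundant member, and up to 8 interaction genes by p. Receptor, androgen-responsive and Y-linked genes could be named freely, and names outside this rule, given after their values were seen, are Lvrn, Ciita, Col1a1, Col3a1, Nppa, the further antigen presentation genes and those under other observations. Some genes that the rule names are not reported here. Alternatives changed the pseudocount, filter, scale, fit and libraries. Gene positions are from GENCODE on mm10 and sequences from RefSeq.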

Additional observations from a re-analysis of the deposited data

Results flagged for a closer look

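The C7 difference between castration and ovariectomy, −2.97 on the log2 scale (adjusted p = 0.0266), was singled out because the change after gonadectomy differed between the sexes in the interaction test. Its dependence on single libraries is given with the comparison.

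In 10 of 140 groups of 4 libraries checked for the named genes, 1 library stood far from the other 3, and chance gives about 1 in 20 such groups. Among Gx libraries these were library 50 in Anpep (789, others 691 to 705) and in Efemp1 (479, others 371 to 389), and library 36 in Srebf1 (908, others 1050.2 to 1069.5). Among male Ctrl libraries, library 31 stood apart in C1ra (804, others 964 to 977), Ell2 (603, others 489 to 503), H2-D1 (4806, others 5467 to 5562) and Klf4 (1422, others 1120.4 to 1164). Ctrl library 33 stood apart in Gper1 (31.0, others 43.7 to 45.2) and Slit3 (715, others 541 to 561), and Ctrl library 49 in Mfap4 (460, others 194 to 234).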

How the results depend on the processing

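No paired analysis was possible because the castrated and control groups share no sample numbers. The castration comparison gave 6 genes called and 16 past the adjusted p, and the interaction 1 of each. A mean of at least 50 left 3 genes called. Without a variance trend 0 genes were called and 0 passed in either comparison (1220 and 795 genes had an unadjusted p under 0.05 with the trend). Without libraries 49 and 50 there were 10 called, 5 of them shared. Leaving out 1 library gave 2 to 12 called and 7 to 34 past the adjusted p, and 0 to 1 of each in the interaction. In the interaction, no filter and leaving out libraries 49, 50, 51 and 53 each gave 0 called and 0 past, and the values as deposited gave 2 called and 6 past. Over the named genes, 0 of 1696 fold changes recomputed under an alternative turned its direction. Most of these genes were named by their p in the same libraries, which the alternatives reuse, so this count adds little. The list medians were computed under these alternatives after seeing the data. The meaning of the higher sample numbers (49 and above) is not given, and a term for them gave 6 called. Precision is set by 4 pools per group, and genes near a mean of 10 rest on few reads.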

Other observations

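The 8 genes given here were picked from the lists after their values were seen, and none passed the adjusted p over all genes. In 4 of them the libraries of the groups did not overlap, beside 5.05% of all genes, and this count reflects how they were picked. Dkk3, a secreted Wnt antagonist that was on the list of atrial markers, had 240, 287, 288 and 248 in Gx, against 117, 115, 139 and 228 in Ctrl (0.88, adjusted p = 0.18). Ctrl library 49 lay just under Gx, and without it the adjusted p was 0.0055 (log2 fold change 1.095). Dkk3 passed in 2 of the 19 alternatives, and its adjusted p reached 0.49. The chemokine Ccl21a, made by lymphatic endothelium, had 722, 822, 783 and 899 in Gx, against 562, 584, 690 and 559 in Ctrl (0.43, adjusted p = 0.16). Acaca, which makes malonyl-CoA, had 547, 577, 525 and 563 in Gx, against 747, 707, 614 and 668 in Ctrl (−0.30, adjusted p = 0.28). Elovl6, a fatty acid elongase, had 35.9, 32.6, 35.4 and 32.0 in Gx, against 12.8, 14.997, 27.9 and 22.7 in Ctrl (0.82, adjusted p = 0.49).

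In the other 4 genes the groups overlapped. Among genes of electrical conduction, connexin 43 (Gja1) had 14321, 16609, 13192 and 14234 in Gx, against 9041, 10905, 13632 and 13738 in Ctrl (0.32, adjusted p = 0.45), and the potassium channel subunit Kcne1 had 64.4, 122, 56.4 and 82.6 in Gx, against 63.2, 45.3, 39.9 and 48.0 in Ctrl (0.67, adjusted p = 0.48). In BMP signalling, the receptor Bmpr2 had a log2 fold change of −0.31 and the ligand Bmp4 of 0.43, neither past the adjusted p (0.32 and 0.43).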
